A study of Mus musculus with 6 samples.

Results

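The Id family of mouse (Id1, Id2, Id3 and Id4) was followed across 6 cultures of C2C12, a mouse myoblast line that divides in rich serum and forms multinucleated myotubes when serum is lowered. A family member was taken as a gene whose probe set on the array is annotated with that 1 symbol, and all 4 of 4 members were found, each with 1 probe set, among 22180 genes in all. Each culture gave total RNA for 1 Affymetrix whole-transcript array, so each of the 6 groups held 1 array. All cultures were C2C12 cells first kept in DMEM with 10% fetal bovine serum. In this growth medium 1 culture was untreated, and 1 each was exposed for 24 h to 50 ng/ml TNF-α or to 10 nM BTZ. The other cultures were moved to 2% differentiation medium and harvested on day 5: 1 was untreated, and 1 each was given 50 ng/ml TNF-α or 10 nM BTZ on day 4. The 2 untreated cultures differ in medium and may differ in days of culture, and the labels give no batch. Both treatments of a medium are set against the same untreated array, and the 2 untreated arrays also make the medium comparison, so these comparisons are not independent. TNF-α is an inflammatory cytokine. BTZ is an abbreviation of the labels; it is the common short form of bortezomib, a proteasome inhibitor, but they give no full name.

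Id proteins are helix-loop-helix (HLH) proteins that lack the basic stretch with which their relatives bind DNA. They pair with the E proteins, the products of Tcf3, Tcf4 and Tcf12, and so keep these from pairing with MyoD and other myogenic factors to switch on muscle genes. In dividing myoblasts they are known as brakes on differentiation. Transcription of Id1, Id2 and Id3 is a classical response to bone morphogenetic proteins (BMPs), whose receptors activate the SMAD1 and SMAD5 factors. The proteins are short-lived and are degraded by the proteasome. The arrays measured RNA only.

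Id1 lies on chromosome 2 (152736251 to 152737410), Id2 on chromosome 12 (25093799 to 25096092), Id3 on chromosome 4 (136143822 to 136145392) and Id4 on chromosome 13 (48261116 to 48266028), all in build GRCm38.p6. The RefSeq table of start regions in the same build held 3 of the 4 genes, without Id1. These regions, from 250 bases before to 50 bases after the start, are shown because Id2 and Id3 spanned more than 2 log2 units over the 6 arrays and Id4 stayed near the lower limit used here for a signal, and capitals mark every match to the motifs listed after them. The Id2 region is chr12:25096043-25096342 on the minus strand, the Id3 region chr4:136143572-136143871 on the plus strand and the Id4 region chr13:48260866-48261165 on the plus strand.
Id2: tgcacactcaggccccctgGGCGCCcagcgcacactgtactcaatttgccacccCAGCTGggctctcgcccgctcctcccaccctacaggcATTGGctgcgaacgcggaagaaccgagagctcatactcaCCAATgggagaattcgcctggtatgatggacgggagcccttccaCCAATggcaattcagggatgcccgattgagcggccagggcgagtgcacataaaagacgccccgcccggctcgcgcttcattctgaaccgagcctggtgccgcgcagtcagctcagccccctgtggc
Id3: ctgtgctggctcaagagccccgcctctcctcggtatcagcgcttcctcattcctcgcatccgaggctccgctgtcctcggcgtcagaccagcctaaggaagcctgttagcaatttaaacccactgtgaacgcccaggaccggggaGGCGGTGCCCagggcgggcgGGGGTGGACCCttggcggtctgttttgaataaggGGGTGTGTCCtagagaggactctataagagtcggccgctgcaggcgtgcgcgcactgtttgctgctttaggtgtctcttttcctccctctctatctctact
Id4: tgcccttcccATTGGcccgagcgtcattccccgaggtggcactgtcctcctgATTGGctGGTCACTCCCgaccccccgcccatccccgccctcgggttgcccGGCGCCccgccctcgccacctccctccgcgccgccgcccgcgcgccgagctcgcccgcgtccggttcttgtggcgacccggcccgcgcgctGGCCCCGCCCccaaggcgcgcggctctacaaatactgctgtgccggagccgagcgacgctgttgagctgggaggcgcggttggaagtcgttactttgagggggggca

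Both strands were searched for 10 motifs, and overlapping matches were kept. The core GGCGCC, a GC-rich element bound by SMAD1 and SMAD5, was found once in the Id2 and once in the Id4 region and in 11.96% of all 27025 start regions. Its longer form TGGCGCC (4.08% of regions) and the paired SMAD box GTCTAGAC (0.211%) were in none of the 3 Id regions. The E-box CANNTG, the site of HLH dimers, was found once in Id2, as CAGCTG 196 bases before the start, and in 72.1% of regions. CCAAT, the site of NF-Y, was found 3 times in Id2, 2 times in Id4 and in 37.9% of regions. A loose form of the NF-kB site, GGG and CC with 5 free bases between them, gave 4 matches in Id3, some of them overlapping, 2 in Id4 and 0 in Id2, and 50.4% of regions held it. TATAAA (14.2%), the EGR1 site GCGGGGGCG (2.92%), the CRE TGACGTCA (1.88%) and a heat shock element (0.529%) were in none of the 3. A match is a run of letters and no evidence of binding.

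The array medians lay between 5.01 and 5.11 on the log2 scale. A floor was set at the median of all values, 5.06, and 13652 genes reached it on at least 1 array, among them all 4 Id genes. Of 9 markers of myoblasts and myotubes 8 reached the floor on each growth-medium array and 9 on each differentiation array; the embryonic myosin Myh3 was the one under the floor in growth medium. The defining leukocyte marker Ptprc and all 4 endothelial markers were under the floor on all 6 arrays. The summed log2 signal ran from 21.3 to 24.4 for 5 leukocyte markers (1 or 2 at the floor, Cd68 on every array), from 17.6 to 18.2 for 4 endothelial markers (0 at the floor), from 17.5 to 18.5 for 4 adipocyte markers (0 to 2 at the floor) and from 18.7 to 20.2 for 4 osteoblast markers (1 or 2 at the floor). Cd68, also a lysosomal gene of other cells, fell with differentiation medium (-1.18 ± 0.16, SE, limma adjusted p = 0.0241) and rose with BTZ (0.89 ± 0.20, adjusted p = 0.0411) in the fit described with the medium comparison; its part in the Id values was not tested. Since no group had a second array, a difference between 2 arrays carries no error and no p-value, and their number limits the precision.

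Id3, an Id gene of dividing and progenitor cells, had the widest span of the family. Its log2 signal in growth medium was 9.75 untreated, 8.47 with TNF-α and 7.55 with BTZ, and in differentiation medium 8.43 untreated, 7.60 with TNF-α and 5.44 with BTZ. The untreated growth-medium array was the highest, the BTZ array in differentiation medium was the lowest and close to the floor, and each treatment was below its own control. The span was 4.30 log2 units. Scatter around the additive fit of medium and treatment had an SD of 0.44 for Id3. It is the only measure of spread that single arrays give, and it cannot tell array error from a treatment effect that differs between media. In 2 pairs of neighbours in rank the signals differed by less: TNF-α in growth medium beside untreated differentiation medium, and TNF-α in differentiation medium beside BTZ in growth medium.

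Id1, a classical BMP target, spanned 2.14 log2 units. Its signal in growth medium was 8.18 untreated, 7.37 with TNF-α and 6.75 with BTZ, and in differentiation medium 7.002 untreated, 6.04 with TNF-α and 6.12 with BTZ. Every differentiation array was below the growth-medium array of the same treatment. The fit left an SD of 0.26 for Id1, with the same limit. The 2 treated differentiation arrays, the lowest pair, differed by less than that, as did untreated differentiation medium and BTZ in growth medium.

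Id2, which is also known to bind the retinoblastoma family of cell cycle inhibitors, spanned 2.21 log2 units. Its signal in growth medium was 9.30 untreated, 8.49 with TNF-α and 8.39 with BTZ, and in differentiation medium 8.31 untreated, 8.45 with TNF-α and 7.09 with BTZ. The 4 middle arrays lay between 8.31 and 8.49, with untreated growth medium above them and BTZ in differentiation medium below. The residual SD of Id2 was 0.47, and it takes in a TNF-α effect that differed between media by 0.96.

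Id4, better known from neural cells and the germ line, stayed near the floor. Its signal was 5.14 untreated, 5.37 with TNF-α and 5.22 with BTZ in growth medium, and 4.99, 5.21 and 5.03 in the same order in differentiation medium. All 6 arrays lay within 0.38 log2 units, and 4 of them reached the floor. At such signals a true difference is compressed by background, so these values do not show that Id4 was constant.

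**Figure D1:**
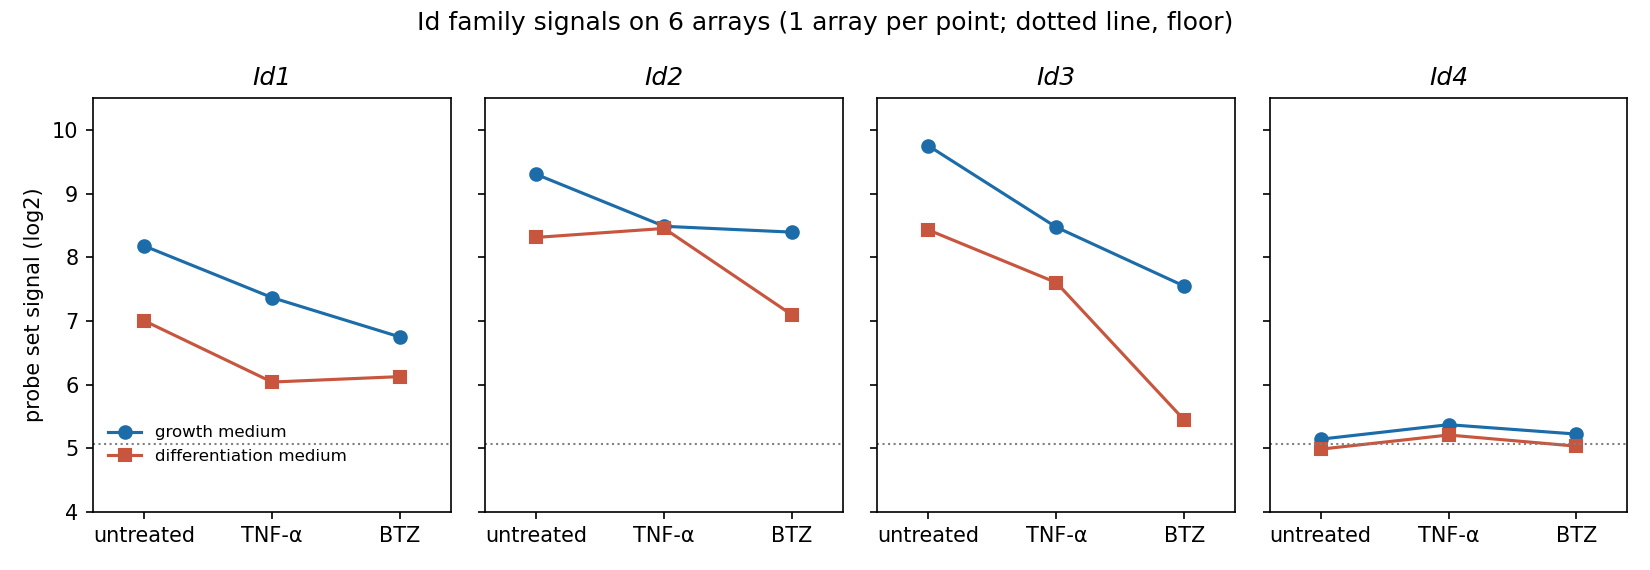
Log2 probe set signal of Id1, Id2, Id3 and Id4 (one panel each) on the 6 arrays, with treatment on the x axis, growth medium in blue circles and differentiation medium in orange squares; each point is 1 array, there are no error bars, and the dotted line is the floor of 5.06. Levels can be compared within a panel but not between genes. Id3 runs from 9.75 down to 5.44, and Id4 stays between 4.99 and 5.37.

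The untreated cultures were compared to ask how the Id genes differ between cells kept in growth medium and cells taken through differentiation. Id3 was lower in differentiation medium by 1.32 on the log2 scale (2.50-fold), Id1 by 1.17 (2.26-fold) and Id2 by 0.99 (1.99-fold), while Id4 differed by -0.16. Thus 2 of 4 members were at least 2-fold lower and 0 higher, and the family median was -1.08 against 0.01 for all genes at the floor. By the same measure 3.92% of all genes at the floor were lower and 4.83% higher. Id3 stood at rank 337, Id1 at 414 and Id2 at 540 from the lowest of 13652.

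The same medium difference was also read under each treatment. With TNF-α in both media it was -1.33 for Id1, -0.87 for Id3 and -0.03 for Id2, so 1 of 4 members was at least 2-fold lower, beside 4.85% of all genes. With BTZ in both media it was -2.10 for Id3, -1.30 for Id2 and -0.62 for Id1, so 2 of 4 were at least 2-fold lower, beside 2.13% of all genes. Id3 in that pair ranked 40 from the lowest. An additive model of medium and treatment over all 6 arrays (limma, 2 residual degrees of freedom) gave Id3 a medium effect of -1.43 ± 0.25 (SE, adjusted p = 0.0419) and Id1 one of -1.04 ± 0.18 (adjusted p = 0.0419), so both fell with differentiation medium. Id2 had -0.77 ± 0.26 (adjusted p = 0.162) and Id4 -0.17 ± 0.14 (adjusted p = 0.529), which did not pass. The fit called 2.47% of genes as lower. With an untreated or TNF-α array of either medium left out the 2 calls were lost, with adjusted p between 0.217 and 0.296 for Id1 and between 0.0696 and 0.24 for Id3; without either BTZ array they held.

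BTZ was compared with no treatment in each medium. Id3 had the largest difference of the family, -2.20 in growth medium (4.60-fold lower) and -2.98 in differentiation medium (7.91-fold lower). Id1 was lower by 1.43 (2.69-fold) in growth medium and by 0.88 (1.84-fold) in differentiation medium. Id2 was lower by 0.91 (1.88-fold) and 1.22 (2.33-fold) in the same order, and Id4 differed by 0.08 and 0.05. In growth medium 2 of 4 members were at least 2-fold lower (family median -1.17, beside 0.02 for all genes), where 6.16% of all genes were lower and 4.99% higher by that measure. In differentiation medium 2 of 4 were (family median -1.05, beside 0.00 for all genes), where 8.91% of all genes were lower and 6.05% higher. Id3 ranked 121 from the lowest in growth medium and 87 in differentiation medium; Id1 and Id2 ranked between 417 and 1477. The BTZ difference of Id3 was larger in differentiation medium by 0.78, and that of Id1 was smaller there by 0.55, both without a test.

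In the additive fit Id3 had a BTZ effect of -2.59 ± 0.31 (SE, limma adjusted p = 0.0121) and Id1 one of -1.15 ± 0.22 (adjusted p = 0.0289), so these 2 members fell with BTZ over the 2 media. Id2 had -1.06 ± 0.32 (adjusted p = 0.0812) and Id4 0.06 ± 0.17 (adjusted p = 0.838). The fit called 6.85% of all genes as lower with BTZ. Without the untreated growth-medium array the adjusted p was 0.123 for Id3 and 0.235 for Id1, without the untreated differentiation array 0.136 and 0.202, and in either case the fit called 0 genes for BTZ at all, although 2362 and 2209 had an unadjusted p under 0.05. With single arrays left out the BTZ effect of Id2 ran from -1.46, without the growth-medium BTZ array, to -0.67, without the differentiation BTZ array.

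TNF-α was compared with no treatment in each medium. In growth medium Id3 was lower by 1.28 (2.42-fold), Id2 by 0.82 (1.76-fold) and Id1 by 0.81 (1.76-fold), and Id4 differed by 0.23. Of 4 members 1 was at least 2-fold lower (family median -0.81, beside 0.03 for all genes), where 1.02% of all genes were lower and 0.982% higher by that measure. Id3 ranked 62 from the lowest of 13652, Id2 266 and Id1 271. In differentiation medium Id1 was lower by 0.96 (1.95-fold) and Id3 by 0.83 (1.77-fold), Id2 differed by 0.14 and Id4 by 0.22. There 0 of 4 members were at least 2-fold lower (family median -0.34, beside 0.01), where 0.879% of all genes were lower and 2.01% higher. Id1 ranked 134 and Id3 215.

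The additive TNF-α effects were -1.05 ± 0.31 (SE) for Id3 and -0.89 ± 0.22 for Id1, with limma adjusted p of 0.57 and 0.49. Id2 had -0.34 ± 0.32 (adjusted p = 0.876) and Id4 0.22 ± 0.17 (adjusted p = 0.848). The fit called only 2 genes as lower with TNF-α, 0.0146% of those tested, and 11 as higher, while 896 had an unadjusted p under 0.05. When either BTZ array was left out, Id1 (adjusted p = 0.0395 without the growth-medium one, 0.039 without the other) and Id3 (0.0256 and 0.0235) passed. With the growth-medium TNF-α array left out the Id2 effect was 0.22, since it then rests on the differentiation pair.

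**Figure D2:**
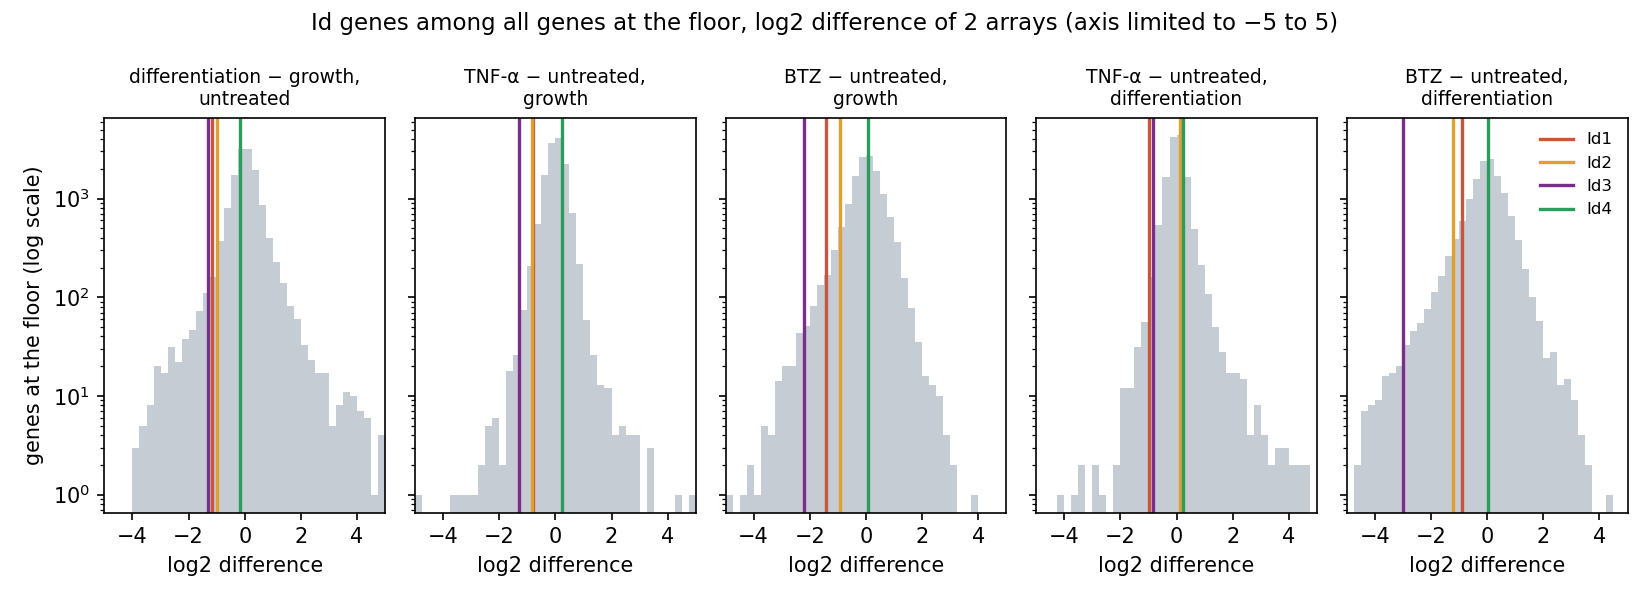
Histograms of the log2 difference of all 13652 genes at the floor in 5 comparisons of 2 arrays, with the number of genes on a log axis and bins of 0.25, drawn between -5 and 5; vertical lines mark Id1, Id2, Id3 and Id4. Id3 lies in the lower tail of both BTZ panels, at -2.20 and -2.98, and Id4 lies near 0 in all panels.

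The binding partners of the Id proteins were compared next. In untreated differentiation medium the E protein gene Tcf4 was higher by 0.93, Tcf12 by 0.27, and Tcf3 was lower by 0.42. With TNF-α in both media the medium difference of Tcf4 was 1.09, past 2-fold, and with BTZ in both it was 0.36; its additive medium effect was 0.79 ± 0.18 (SE, limma adjusted p = 0.0753). With BTZ Tcf4 was lower by 0.93 in growth and by 1.50 in differentiation medium, and it fell in the additive fit (-1.21 ± 0.22, limma adjusted p = 0.0259). Tcf12 differed by -0.67 and -0.29 and Tcf3 by -0.07 and 0.10 with BTZ. Under TNF-α Tcf4 differed by -0.79 in growth and -0.62 in differentiation medium, Tcf12 by -0.38 and -0.44, and Tcf3 by 0.23 and 0.10. So 1 of 3 E protein genes was called as lower for BTZ, beside 6.85% of all genes, and 0 of 3 in either direction for medium or TNF-α.

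The myogenic HLH factors were read in the same comparisons. In untreated differentiation medium myogenin (Myog), which drives terminal differentiation, was higher by 4.19 and Myod1 by 1.61, while Myf5, a factor of undifferentiated myoblasts, was lower by 0.91. With BTZ in differentiation medium Myog was lower by 3.97 and Myod1 by 2.90, and Myf5 differed by -0.21. With BTZ in growth medium Myf5 was lower by 1.84, and Myod1 and Myog differed by -0.68 and -0.63. Under TNF-α Myod1 differed by -0.41 in growth and -0.92 in differentiation medium, Myf5 by -0.12 and -0.80, and Myog by -0.74 and -0.31. None of the 3 passed the additive fit in any contrast (limma adjusted p from 0.0714 for Myog with medium to 0.932 for Myog with TNF-α), and Myf6 was under the floor on all 6 arrays. The BTZ effects of Myog, Myod1 and Myf5 differed between media by -3.34, -2.22 and 1.63. The fit counts such differences as error, so a miss does not show that a gene was unchanged. Of 12 muscle genes that MyoD and E proteins are known to switch on, 10 passed 2-fold upward with untreated differentiation medium and 0 downward (median 4.16). Myh3, Mef2c and Actc1 were under the floor on every growth-medium array and reached it only in differentiation medium. The floor itself thus favoured an upward difference for them. With BTZ in that medium 11 were at least 2-fold lower (median -2.64). Of all genes at the floor 4.83% passed upward in the first comparison and 8.91% were lower in the second. With TNF-α 0 of 12 passed 2-fold in either medium. Of all genes 1.02% were lower and 0.982% higher with it in growth medium, and 0.879% and 2.01% in differentiation medium. A count of 0 of 12 is near those shares.

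**Figure D3:**
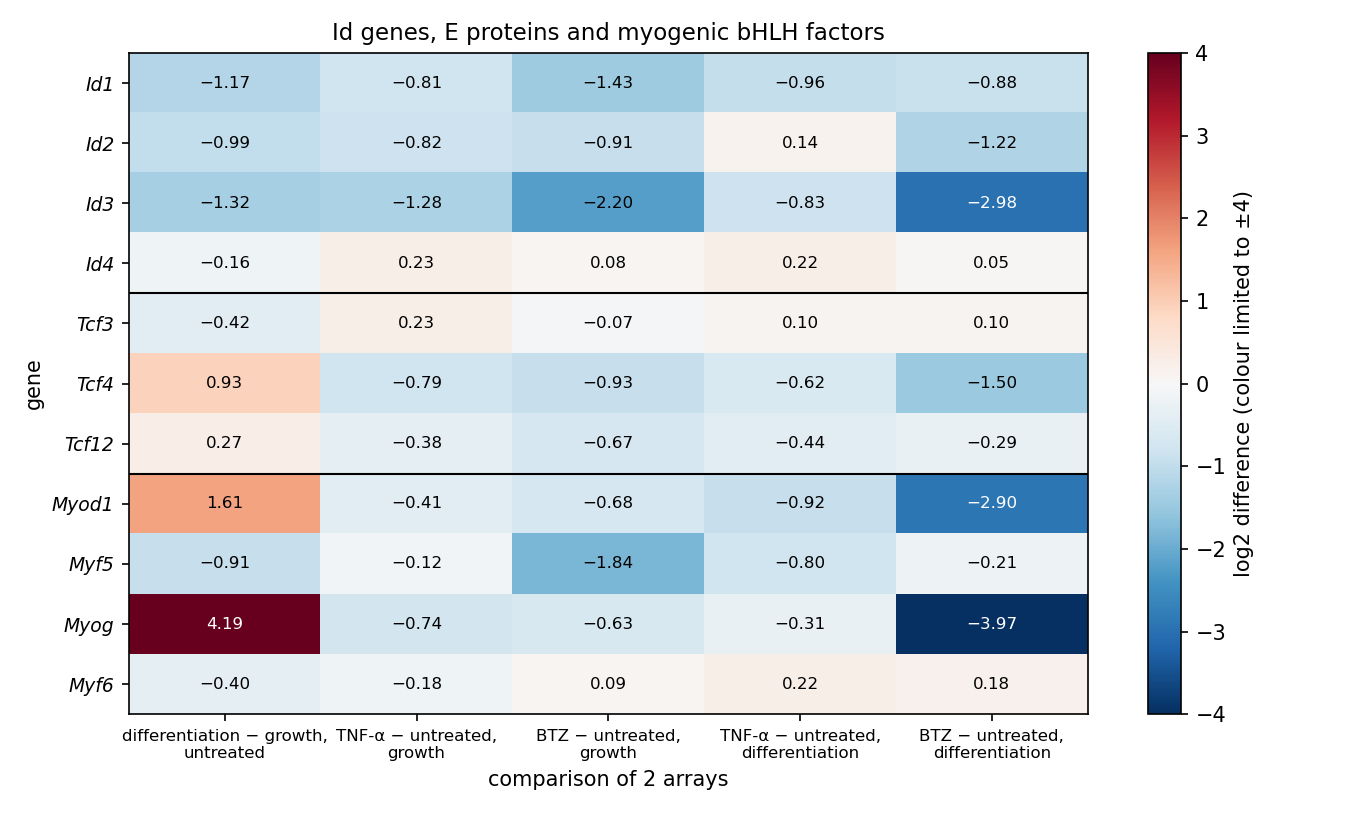
Log2 differences of the 4 Id genes, 3 E protein genes and 4 myogenic HLH genes (rows) in 5 comparisons of 2 arrays (columns), with red for higher, blue for lower and the colour limited to 4 either way; each cell is the difference of 2 single arrays. In the BTZ column of differentiation medium Id3 (-2.98), Myod1 (-2.90) and Myog (-3.97) are all low, while in the medium column Myog (4.19) is high and Id3 (-1.32) is low.

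Among 10 other HLH regulators at the floor, 1 was at least 2-fold lower and 2 higher in untreated differentiation medium: Twist2, an inhibitor of myogenic factors, at -1.51 and under the floor there, Hes6 at 1.65 and Bhlhe40 at 1.10. Of all genes at the floor 3.92% were lower and 4.83% higher by that measure. Bhlhe40 rose with differentiation medium in the additive fit (1.09 ± 0.12, limma adjusted p = 0.0112). With BTZ 3 of 10 were lower in growth medium and 4 of 10 in differentiation medium, and 0 higher. Among all genes 6.16% and 8.91% were lower in the same order. The Notch targets Hes1 (-1.93 and -1.66) and Hey1 (-1.40 and -1.08) were lower in both media, as was Twist2 (-1.91 and -0.72), and Hes1 (-1.80 ± 0.18, limma adjusted p = 0.0105), Hey1 (-1.24 ± 0.20, adjusted p = 0.0206), Hes6 (-1.18 ± 0.28, adjusted p = 0.046) and Twist2 (-1.32 ± 0.32, adjusted p = 0.0483) fell in the additive fit. Twist2 reached the floor on 2 of 6 arrays, untreated and with TNF-α in growth medium, and its signals with BTZ, 3.93 and 3.61, were under it, so the size of its BTZ effect rests on signals too low to be measured well. With TNF-α 0 of 10 passed 2-fold in growth medium, and in differentiation medium 1 did, Hey1 at -1.11. Among all genes 0.879% were lower there, and 1.02% were lower and 0.982% higher with TNF-α in growth medium.

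The BMP pathway upstream of the Id genes was then described by role. Of 10 BMP ligand genes 6 were at the floor, among them Bmp4, which reached it on all 6 arrays. Its log2 signal was 9.90 untreated, 8.33 with TNF-α and 7.75 with BTZ in growth medium, and 10.05, 10.42 and 7.64 in the same order in differentiation medium. Bmp4 was thus low on both BTZ arrays and on the growth-medium TNF-α array, and high on the others. Its difference was 0.15 for medium, -1.58 and 0.37 for TNF-α, and -2.15 and -2.41 for BTZ (growth medium first), and it fell with BTZ in the additive fit (-2.28 ± 0.52, limma adjusted p = 0.0433). The only other ligand past 2-fold in any of these 5 comparisons was Gdf6, at -1.32 with BTZ in differentiation medium.

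Of 8 receptor and coreceptor genes at the floor 0 passed 2-fold with TNF-α or BTZ in growth medium and 0 were called in the additive fit. Of all genes at the floor 6.16% were lower and 4.99% higher with BTZ in growth medium, and 1.02% and 0.982% with TNF-α. The fit called 2.47% as lower with differentiation medium and 6.85% as lower with BTZ. A count of 0 of 8 does not set these genes apart from such shares. The type I receptors Bmpr1a and Acvr1 and the type II receptor Bmpr2 differed by between -0.54 and 0.38 in all 5 comparisons. Hjv, the muscle-rich coreceptor hemojuvelin, was higher by 4.33 in untreated differentiation medium and lower by 4.11 with BTZ there. Bmpr1b was higher by 1.20 with TNF-α and by 1.17 with BTZ in differentiation medium, from a control array under the floor, and Acvr2a was higher by 1.11 with differentiation medium.

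Antagonists of BMPs leaned upward in differentiation medium and downward with BTZ. Of 9 at the floor 4 passed 2-fold upward and 0 downward in untreated differentiation medium, follistatin (Fst) by 2.87, Chrdl1 by 2.78, Bmper by 1.56 and Nbl1 by 1.16. Of all genes at the floor 4.83% passed upward and 3.92% downward there. With BTZ 4 of 9 were at least 2-fold lower in growth medium (median -0.98) and 5 of 9 in differentiation medium (median -1.03), 0 higher in either, among them Chrdl1 (-1.27 and -3.64), Fst (-1.03 and -3.50), Bmper (-1.35 and -2.21) and Grem1 (-1.21 and -1.03). By that measure 6.16% of all genes were lower in growth medium and 8.91% in differentiation medium. In the additive fit Bmper, Chrdl1, Grem1 and Nbl1, 4 of 9, fell with BTZ (limma adjusted p between 0.0159 and 0.042), and with TNF-α 0 of 9 passed 2-fold in either medium. The fit called 6.85% of all genes as lower with BTZ, and 0 of 9 antagonists in either direction for medium. By 2-fold 1.02% of all genes were lower and 0.982% higher with TNF-α in growth medium, and 0.879% and 2.01% in differentiation medium.

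The signal transducers Smad1, Smad5 and Smad4 differed by between -0.31 and 0.56 in all 5 comparisons. Smad9, which codes for a further SMAD that BMP receptors activate, differed by -0.82 for medium, by -0.62 and -0.26 with TNF-α and by -0.17 and -0.89 with BTZ (growth medium first), and it was under the floor on the BTZ array in differentiation medium. Smad9 did not pass the additive fit in any contrast (limma adjusted p = 0.0891 for medium, 0.832 for TNF-α and 0.263 for BTZ). Their ligase Smurf1 rose with BTZ (0.77 ± 0.17, limma adjusted p = 0.0397). Smad6, an inhibitory SMAD that BMP signalling induces, had a log2 signal of 7.63 untreated, 6.49 with TNF-α and 6.31 with BTZ in growth medium, and 6.82, 6.76 and 4.95 in differentiation medium. Smad6 differed by -1.14 with TNF-α in growth medium and by -0.06 in differentiation medium. With BTZ it differed by -1.33 and -1.87, and it fell in the additive fit (effect -1.60 ± 0.38, limma adjusted p = 0.0467). Its signal with BTZ in differentiation medium, 4.95, was under the floor, so the size of that difference is uncertain. Smad7, an inhibitory SMAD also induced by TGF-β, differed the other way under BTZ, by 0.37 and 0.96.

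Of 7 BMP target genes at the floor outside the Id family 0 were at least 2-fold changed in untreated differentiation medium, with a median of -0.81. Of all genes at the floor 3.92% were lower and 4.83% higher there, with a median of 0.01. With BTZ 3 of 7 were lower in growth medium and 3 of 7 in differentiation medium, and 0 higher (medians -0.80 and -0.89). Among all genes 6.16% and 8.91% were lower in the same order. Atoh8, an HLH gene that BMPs induce, had a log2 signal of 8.31, 6.96 and 6.48 in growth medium and 7.46, 6.85 and 5.95 in differentiation medium, untreated first, then TNF-α, then BTZ. Atoh8 was the highest untreated in growth medium and the lowest with BTZ in differentiation medium, as Id2 and Id3 were. It fell with BTZ (-1.68 ± 0.22, limma adjusted p = 0.015), and its TNF-α effect was -0.98 ± 0.22 (adjusted p = 0.457). With TNF-α 2 of 7 were at least 2-fold lower in growth medium, Atoh8 at -1.35 and Smad6 at -1.14, and 1 of 7 in differentiation medium, Hey1. The shares over all genes were 1.02% and 0.879%. Dlx3 fell with differentiation medium (-0.93 ± 0.14, adjusted p = 0.0272). Hey1, Smad6, Smad7, Smad9 and Bambi stand in more than 1 of the lists used here.

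**Figure D4:**
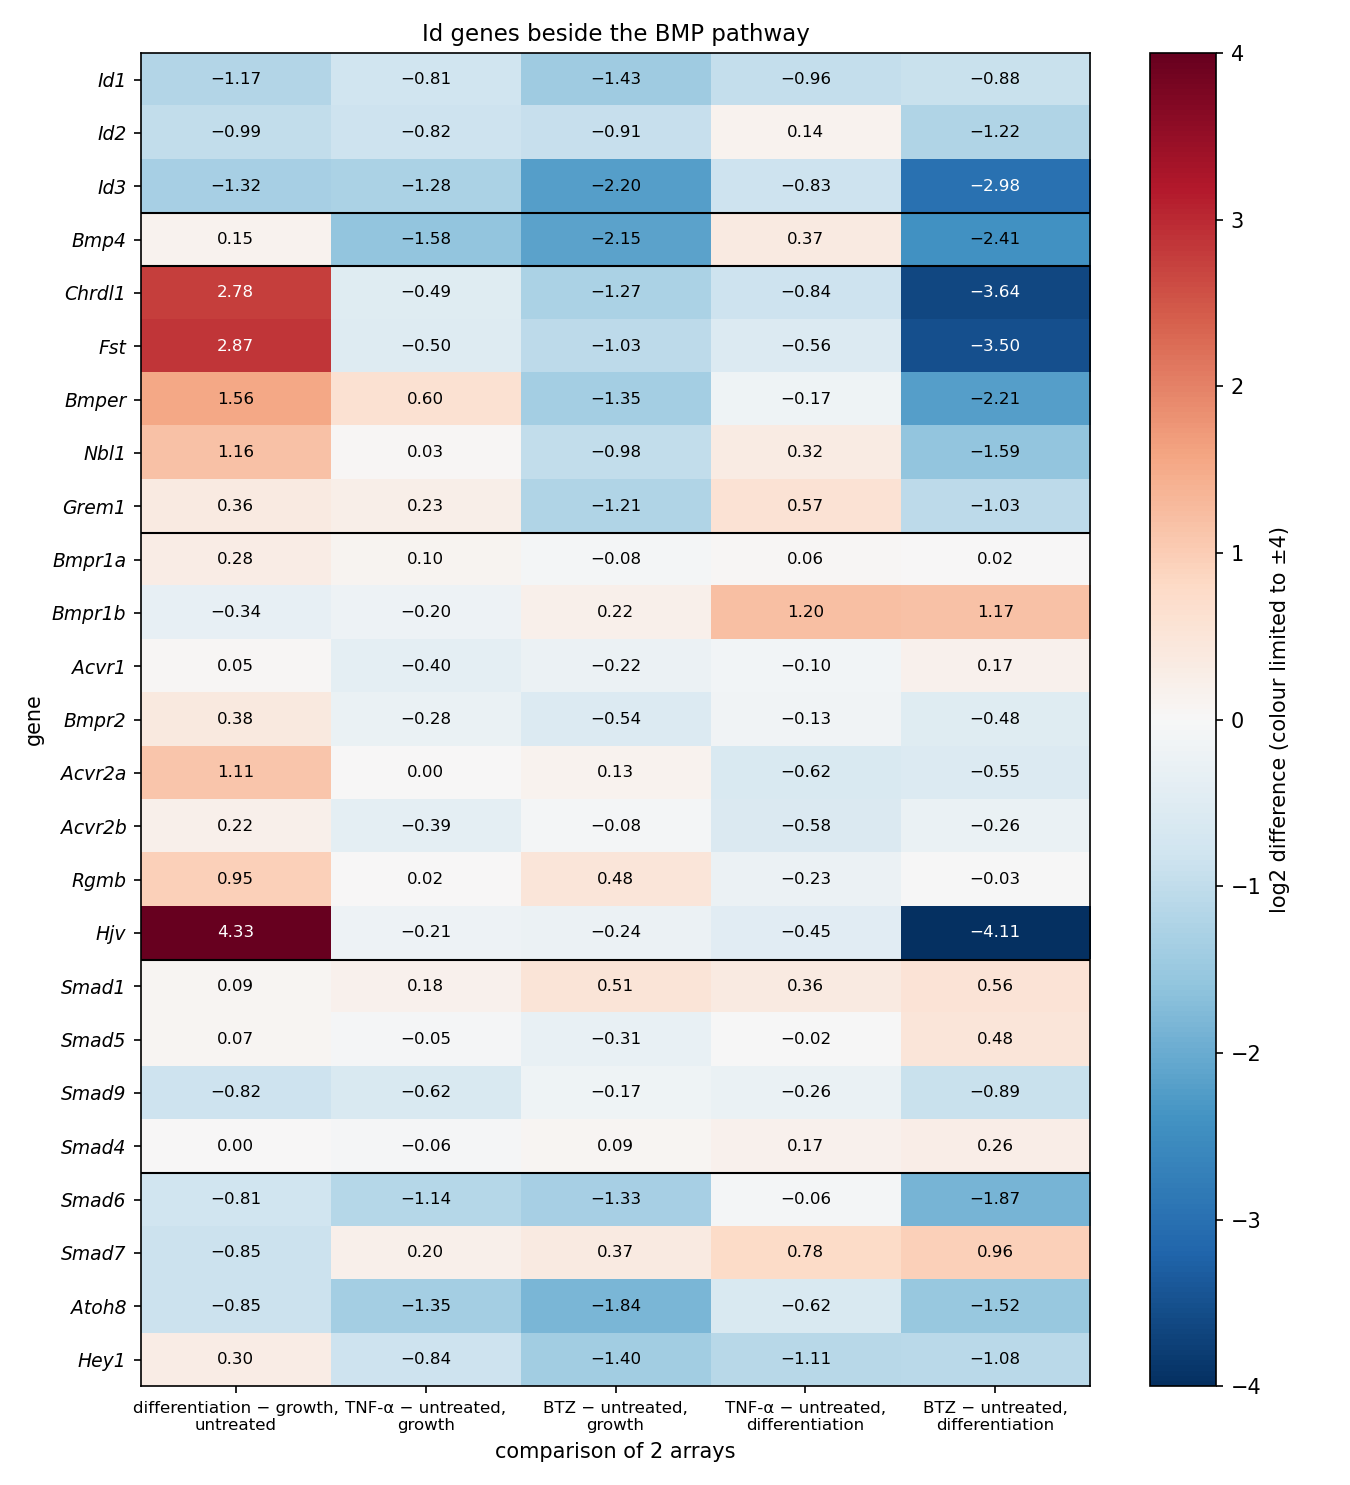
Log2 differences of Id1, Id2 and Id3 and of BMP pathway genes (rows, set apart by lines into Id genes, ligand, antagonists, receptors, SMAD transducers, and inhibitory SMADs with BMP target genes; all 8 receptor and coreceptor genes at the floor are drawn) in 5 comparisons of 2 arrays (columns), with red for higher, blue for lower and the colour limited to 4 either way. Bmp4, Smad6 and Atoh8 lie between -1.33 and -2.41 in the BTZ columns, Smad1, Smad5 and Smad4 between -0.31 and 0.56 in all columns, and Hjv runs from 4.33 in the medium column to -4.11 with BTZ in differentiation medium. Other genes at the floor are not drawn: the ligands besides Bmp4, the antagonists Chrd, Twsg1, Sostdc1 and Bambi, and the target gene Dlx3. Of those left out only Gdf6 passed 2-fold with BTZ, at -1.32 in differentiation medium.

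Regulators of Id transcription outside this pathway were also read. Egr1, an immediate early factor that binds the Id1 promoter, differed by -1.31 with TNF-α and -2.48 with BTZ in growth medium, and by 0.33 and -2.32 in differentiation medium. Atf3, a stress factor known to repress Id1 in human epithelial cells, differed by 2.06 and 3.50 with BTZ (growth medium first) and by 0.27 and 0.17 with TNF-α. In the additive fit Egr1 fell (-2.40 ± 0.41, limma adjusted p = 0.0223) and Atf3 rose (2.78 ± 0.39, adjusted p = 0.0164) with BTZ. Usp1, whose product removes ubiquitin from Id proteins in human cells, fell with differentiation medium (-1.43 ± 0.24, adjusted p = 0.0388). With BTZ Usp1 differed by -1.45 in growth and -0.45 in differentiation medium, and its additive effect did not pass (-0.95 ± 0.30, limma adjusted p = 0.0899). Wdr48, which codes for its activating partner, rose with BTZ (0.70 ± 0.15, adjusted p = 0.0366).

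Genes of dividing cells moved with the Id genes in part of the comparisons. All 8 measured at the floor were at least 2-fold lower in untreated differentiation medium (median -3.15) and with BTZ in growth medium (median -2.47), and 5 of 8 were with BTZ in differentiation medium (median -1.16). Among all genes at the floor 3.92%, 6.16% and 8.91% were lower in the same order. Birc5 was under the floor on the untreated differentiation array and on both BTZ arrays. Bub1 (3.82) and Top2a (4.37) were under it with BTZ in differentiation medium, and Ccna2 (5.14) was close to it. The sizes with BTZ in differentiation medium are therefore uncertain, and the smaller median there does not show a weaker effect. With TNF-α, where Id1 and Id3 were lower in both media, 0 of 8 were lower (medians 0.32 in growth and 1.04 in differentiation medium) and 5 of 8 passed 2-fold upward in differentiation medium. Among all genes 2.01% passed upward there. In RNA from whole cultures, fewer cells of a kind and less RNA in each cell cannot be told apart, and the part of cell division in the Id values was not tested. The 7 housekeeping genes measured had medians between -0.36 and 0.11 in the 5 comparisons, with 1 past 2-fold, Hprt at 1.49 with BTZ in differentiation medium, a gene chosen for naming after its value was seen.

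Genes with profiles most like each Id gene were ranked by the root mean square difference of centred log2 signals over the 6 arrays, among 12492 named genes at the floor. This is a description over 6 arrays, which share media and treatments, and says nothing of shared function. Signals were centred but not scaled, so the span of a gene counts as well as its shape. The 5 nearest to Id1 were Hspb6 (0.17), Hspa12a (0.22), Crybg1 (0.23), Csrp2 (0.24) and Car13 (0.24). The 5 nearest to Id2 were Tceal9 (0.19), Tuba1a (0.21), S100a6 (0.22), Plekhg2 (0.23) and Smad6 (0.24). Those nearest to Id3 were farther off, P4ha3 (0.39), S100a4 (0.40), Oxct1 (0.49), Thbs2 (0.51) and E2f8 (0.52). Of these, P4ha3 and Thbs2 code for a collagen-modifying enzyme and a matrix protein and E2f8 for a cell cycle factor. Id3 spanned 4.30 log2 units, more than Id1 (2.14) or Id2 (2.21), and a wider span gives larger distances on this scale.

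Smad6 came at rank 11 for Id3 (0.58) and at rank 1029 for Id1 (0.60), and Atoh8 at rank 29 for Id3, 91 for Id1 and 134 for Id2. Bmp4 came at rank 1616 for Id3 (1.13), 11848 for Id1 (1.23) and 10568 for Id2 (0.94), so its ranks differ far more than its distances. Since span counts in this measure, the ranks of Bmp4 cannot be compared between Id genes as likeness of shape. The Bmp4 signal stayed high in untreated and TNF-α-treated differentiation medium, where Id1, Id2 and Id3 were below their untreated growth-medium signal. By the same measure Id1 and Id2 differed by 0.49, Id2 and Id3 by 0.72 and Id1 and Id3 by 0.78. The wider span of Id3 counts in its distances here too.

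**Figure D5:**
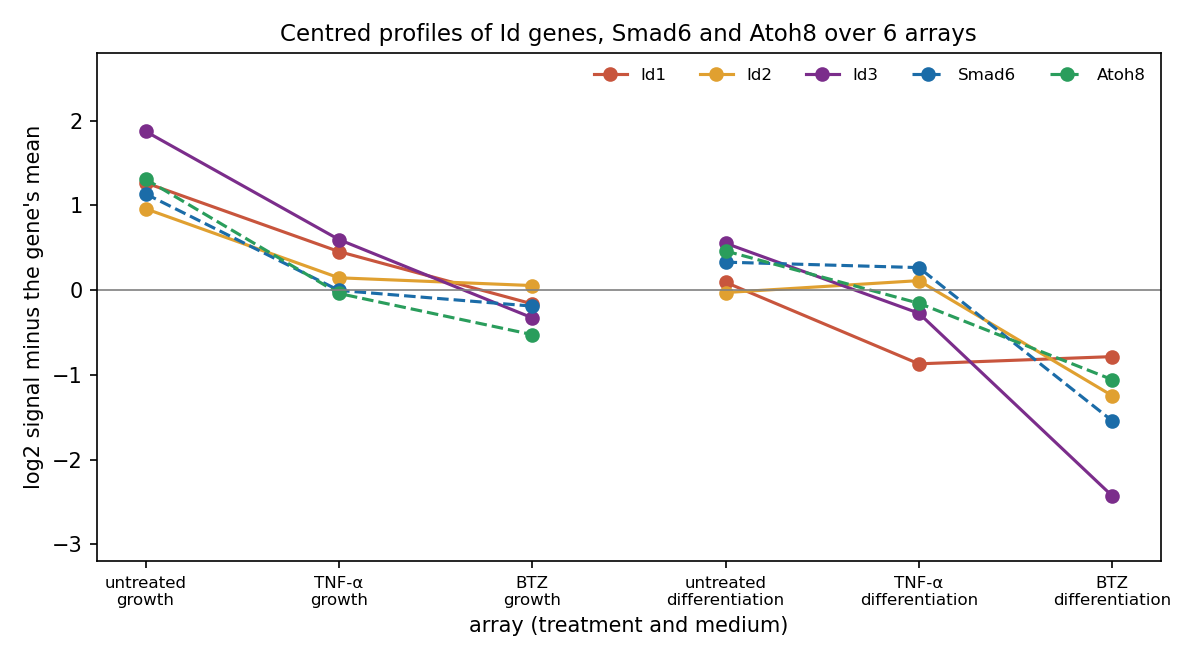
Log2 signal minus the gene's own mean for Id1, Id2, Id3 (solid lines), Smad6 and Atoh8 (dashed lines) on the 6 arrays, ordered by medium and treatment; each point is 1 array, and lines join arrays of the same medium. All 5 genes are highest on the untreated growth-medium array; on the BTZ array in differentiation medium Id3 is the lowest point, and Id1 is lower with TNF-α there than with BTZ.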

How the data were processed

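The authors' deposited table holds 1 value for each of 41345 probe sets on each array. The deposited values were read as log2 signals from their range of about 2 to 14. How the arrays were summarized, background-corrected and normalized is not stated in the sources used here. Per the labels, total RNA was amplified and biotin-labelled by a whole-transcript protocol. The platform annotation gave 1 symbol to 23521 probe sets, several to 1814 and none to 16010. Single-symbol probe sets were averaged into 22180 genes, of which 13652 had a highest value at or over the floor of 5.06.

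Differences are log2 values of 1 array minus another, with a 2-fold threshold and no test. The additive fit (limma 3.58.1, R 4.3.3; lmFit, then eBayes with a trend) took all 6 arrays and genes at the floor, with Benjamini-Hochberg adjustment and a threshold of 0.05. A treatment effect that differs between media enters its error.

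Members and lists were chosen with earlier results of these data known. The text names all E protein and myogenic genes and, of other lists, up to 4 members by size of difference, plus BMP pathway members named for their role; likeness names the 5 nearest genes without predicted genes and small RNAs. Some listed genes were not analysed here. Start regions are from RefSeq, GRCm38.p6, 1 per gene for motif shares. The planned comparison of protein sequences was not made.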

Additional observations from a re-analysis of the deposited data

Results flagged for a closer look

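Several treatment effects had opposite signs in the 2 media, each read from 1 pair of arrays per medium, and the differences were not tested. The TNF-α effect on Id2 was -0.82 in growth and 0.14 in differentiation medium, a difference of 0.96. That on Bmp4 was -1.58 and 0.37 (difference 1.94), that on Egr1 -1.31 and 0.33 (difference 1.64), and that on Bmpr1b -0.20 and 1.20 (difference 1.39). The BTZ effect on Gdf6 was 0.28 and -1.32 (difference -1.60), that on Cdkn1a, a cell cycle inhibitor gene, 1.44 and -0.84 (difference -2.27), that on the acetylcholine receptor subunit gene Chrng 0.32 and -5.27 (difference -5.60), and that on the troponin gene Tnnt3 0.39 and -3.60 (difference -3.99). Outside the Id family, genes were included where 1 of the 2 effects was at least 2-fold. Gdf6, Bmpr1b and Chrng were near or under the floor on some of these arrays.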

How the results depend on the processing

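No paired analysis was possible because every group holds 1 array and no replicate number pairs arrays; the additive fit itself compares treatments within each medium. Shifting the arrays to the same median and quantile normalization moved no Id difference between 2 arrays by more than 0.10 on the log2 scale, and none crossed 2-fold. Taking the highest probe set in place of the mean could not change an Id value, since each Id gene has 1 probe set. That setting only changes the other genes. Floors of 6 or none, and these settings, kept the counts past 2-fold within 1.5 times. In the additive fit the medium effect of Id1 (-1.04) missed the threshold with no floor, where more genes are tested (adjusted p = 0.0514); the calls of Id3 for medium and of Id1 and Id3 for BTZ held under all these settings and without the trend. After quantile normalization 7 genes were called for TNF-α, against 13 as deposited; the cause was not tested. Leaving out each array in turn leaves 1 residual degree of freedom. The medium effect then ran from -1.25 to -0.90 for Id1 and from -1.71 to -1.10 for Id3, the BTZ effect from -1.47 to -0.84 for Id1, from -1.46 to -0.67 for Id2 and from -3.10 to -2.09 for Id3, and the TNF-α effect from -1.10 to -0.67 for Id1, from -0.89 to 0.22 for Id2 and from -1.47 to -0.63 for Id3. The genes called ran from 1 to 3260 for medium, from 0 to 224 for TNF-α and from 0 to 3864 for BTZ, against 550, 13 and 1933 with all 6 arrays.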
